A study of Homo sapiens with 3 samples.

Results

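DEAD box and DEAH box helicases were examined as genes near which tagged wild-type MECOM was precipitated from chromatin. The 9 genes were DDX17, DDX20, DDX50, DDX59, DDX60, DHX29, DHX30, DHX36 and DHX57, chosen by the presence of a peak that the deposited table assigned to them, so that having a peak is how they were selected and not a result. Each had 1 peak, giving 9 peaks of 3462 in the list. ChIP-seq was done with an antibody against the AM tag, a short peptide fused to the protein, in HEK293T, a human embryonic kidney cell line. The 3 libraries came from cells given the empty pMYS-IG vector, tagged wild-type MECOM or the tagged R750W form of MECOM, with 1 library for each. The peak list used here is tied to the wild-type library by the genotype in its name, and peaks of the other 2 libraries were not used. The tagged protein came from an introduced construct, and signal in the vector library was not compared with it. A single list allows neither a contrast of the 3 groups nor an estimate of replicate spread.

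Helicases of this kind use ATP to unwind RNA or to strip proteins from it, and many act throughout the life of an RNA, from transcription and splicing to translation and decay. The DEAD and DEAH names come from the amino acids of a conserved ATPase motif. MECOM, also called EVI1, is a zinc finger transcription factor of blood stem cells whose raised expression accompanies aggressive myeloid leukaemia. It has separate zinc finger domains, one of which recognises GATA-like sequence and the other ETS-like sequence.

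At DHX36, DHX30, DDX59 and DDX20 the peak reached into the bases just before the RefSeq gene start, and these stretches are shown because they are the promoter sequence that the peaks cover. Each is the 250 bases before the start in GRCh38.p14 (the coordinates of hg38), printed 5′ to 3′ on the strand of the gene, with the bases that lie inside the peak in capitals. They are chr3:154324488-154324737 on the minus strand for DHX36, chr3:47802888-47803137 on the plus strand for DHX30, chr1:200669908-200670157 on the minus strand for DDX59 (before the outer of its 2 RefSeq starts) and chr1:111755651-111755900 on the plus strand for DDX20.
DHX36: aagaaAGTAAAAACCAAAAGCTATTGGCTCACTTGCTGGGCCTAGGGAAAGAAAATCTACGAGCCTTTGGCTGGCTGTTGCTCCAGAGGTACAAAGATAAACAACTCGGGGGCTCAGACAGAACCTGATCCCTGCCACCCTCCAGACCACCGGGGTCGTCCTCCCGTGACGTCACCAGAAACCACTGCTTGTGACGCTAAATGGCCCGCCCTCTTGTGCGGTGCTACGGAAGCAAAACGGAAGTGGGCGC
DHX30: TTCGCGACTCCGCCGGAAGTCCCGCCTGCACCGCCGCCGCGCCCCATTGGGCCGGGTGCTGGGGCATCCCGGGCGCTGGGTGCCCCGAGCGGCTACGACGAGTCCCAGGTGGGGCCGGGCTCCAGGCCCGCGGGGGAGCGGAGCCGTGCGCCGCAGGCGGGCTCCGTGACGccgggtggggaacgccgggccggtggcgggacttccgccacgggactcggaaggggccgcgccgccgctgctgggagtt
DDX59: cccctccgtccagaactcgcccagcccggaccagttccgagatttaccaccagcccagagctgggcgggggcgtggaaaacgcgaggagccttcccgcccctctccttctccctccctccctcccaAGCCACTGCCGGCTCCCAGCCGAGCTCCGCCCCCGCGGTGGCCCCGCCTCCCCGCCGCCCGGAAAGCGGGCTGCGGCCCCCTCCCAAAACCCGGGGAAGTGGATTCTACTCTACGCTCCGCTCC
DDX20: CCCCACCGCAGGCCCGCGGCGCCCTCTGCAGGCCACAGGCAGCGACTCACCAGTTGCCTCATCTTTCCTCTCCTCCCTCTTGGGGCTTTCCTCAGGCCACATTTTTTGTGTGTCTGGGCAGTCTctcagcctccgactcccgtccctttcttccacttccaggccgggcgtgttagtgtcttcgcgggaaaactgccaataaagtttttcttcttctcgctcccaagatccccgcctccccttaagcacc

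The DHX36 peak held 245 of these 250 bases, that of DHX30 held 171, and those of DDX59 and DDX20 held 124 each. Before the inner start of DDX59, a stretch not printed here, the peak held all 250 bases. The DHX36 peak thus covered nearly the whole of its stretch. At DHX30 and DDX20 the peak ended before the RefSeq start and held the outer part, while at the outer start of DDX59 it held the part next to the start. Windows of 300 bases, the 250 before the start and 50 after it, were listed by RefSeq for all 9 genes, with 2 windows for DDX59. Of the 9 genes, 6 had at least 1 base of a window in their peak, beside 46.3% of the 1750 genes with a symbol, an assigned peak and such a window. With 9 genes chosen for a peak, no difference is read from this. The other 3, DDX17, DDX50 and DHX29, had none.

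Letters of 6 motifs were searched on both strands of these windows, and a match describes the letters without showing a bound site. The sequence AGATAA, recognised by GATA factors, was found in 1 of the 9 genes, DHX36, starting 156 bases before the start and inside the peak, against 10.3% of all 35116 RefSeq windows. The ETS sequence CCGGAAGT was found at DHX30, 238 bases before the start and inside the peak, and at DDX50, 48 bases before the start and outside the peak, against 4.14% of all windows. CCAAT was found at 6 of the 9 genes, against 34.6% of windows, and lay inside the peak at DHX36 and DHX30. On the strand of the gene alone CCAAT was found at 4 of the 9. GACAAGATA and GAAGATGAG, sequences used here for the first and second zinc finger domains of MECOM, were in no window of the 9 genes and in 0.0968% and 0.347% of all windows. The AP-1 sequence TGANTCA was also in none, against 7.71%. GACAAGATA followed by another A contains AGATAA, so these searches overlap. Most of the peak bases lay outside the windows and were not searched, so the absence of a match covers the windows alone. The windows of the 9 genes had a median GC content of 60.2%, against 58.7% for all windows, and a median of 23 CpG dinucleotides against 14. All windows include those of genes without a peak, while the 9 were chosen for one. Motif counts of the 9 are per gene, while the shares of all windows are per window. No difference is therefore read from the GC and CpG medians or from the motif counts. DHX30 was the richest, with 78.0% GC and 44 CpG, and DDX60 the poorest, with 49.7% GC and 11 CpG.

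DDX60, a helicase of the Ski2-like branch that interferon induces and that takes part in the response to viral RNA, had the highest of the 9 peaks by fold enrichment. It lay on chromosome 4 from 168318363 to 168318709, inside the gene and between 98 and 444 bp from the start used by the deposited table. Its fold enrichment, the authors' ratio of fragments to local background with 1 added to each, was 9.72, from 26 fragments over an expected background of 1.78. Fragments here are those overlapping the summit, the highest point of a peak, and not the total over its width. The exact 95% Poisson interval of that fold, with the background held fixed, was 6.47 to 14.1. These intervals cover counting error alone, and fragments amplified by PCR are not independent molecules. The DDX60 peak ranked 32 of 3462 by fold, and its −log10 q was 16.6. It was the only one of the 9 whose interval lay wholly above the list's median fold of 4.82. Of the 2474 peaks assigned to a gene with a symbol, 122 had such an interval. RefSeq gives DDX60 a span whose outer end lies 7270 bp beyond the peak. The DDX60 peak is therefore near the start of the deposited table and near the RefSeq promoter start but within the RefSeq gene.

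DHX29 and DHX36 came next in fold. DHX29, which helps the small ribosomal subunit pass through structured messenger RNA leaders, had a peak on chromosome 5 from 55306316 to 55306803 with a fold of 6.58 (3.99 to 10.3), from 17 fragments over 1.74. That peak lay between 919 and 1406 bp into the gene, the farthest inside of the 9. DHX36, an RNA and DNA helicase that resolves G-quadruplexes, had a fold of 5.63 (3.31 to 9.05), from 15 fragments over 1.84. Its peak, on chromosome 3 from 154323841 to 154324732, was the widest of the 9 at 892 bp, against a list median of 414 bp, and covered both sides of the start and reached 656 bp into the gene.

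Among the helicases of the nucleolus and of mitochondria, DDX50, a nucleolar protein and the paralog of DDX21, had a fold of 4.66 (3.03 to 6.90) from 23 fragments over 4.15. The peak lay on chromosome 10 from 68901432 to 68901769, between 154 and 491 bp inside the gene. DHX30, a protein of mitochondrial RNA granules needed for assembly of mitochondrial ribosomes, had a fold of 3.49 (2.12 to 5.48) from 17 fragments over 4.15. Its peak, on chromosome 3 from 47802580 to 47803058, covered the deposited start and ended 149 bp inside the gene. DHX30 and DHX29 had the same number of fragments, and their folds differed with the background.

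Of the helicases of nuclear RNA processing, DDX17 is a coregulator of transcription and splicing and the paralog of DDX5, and DDX20 (Gemin3) belongs to the SMN complex that assembles spliceosomal particles. DDX17 had a fold of 3.88 (2.42 to 5.96) from 19 fragments over 4.15, on chromosome 22 from 38506750 to 38507151. DDX20 had a fold of 3.72 (2.50 to 5.36) from 27 fragments over 6.52, on chromosome 1 from 111755184 to 111755774. The DDX20 peak thus had the most fragments at its summit of the 9 and the third lowest fold.

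The remaining pair is less well characterised. DHX57, a DEAH box protein, had a fold of 5.04 (2.85 to 8.36) from 13 fragments over 1.78, the fewest fragments of the 9. The peak was also the narrowest, 270 bp on chromosome 2 from 38875631 to 38875900, and began 34 bp inside the gene. DDX59, mutated in an orofaciodigital syndrome, had the lowest fold, 3.06 (1.97 to 4.56), from 22 fragments over 6.52, on chromosome 1 from 200669632 to 200670031. Its interval was the only one of the 9 to lie wholly below the list's median. Of the 2474 peaks assigned to a gene with a symbol, 115 had such an interval.

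**Figure D1:**
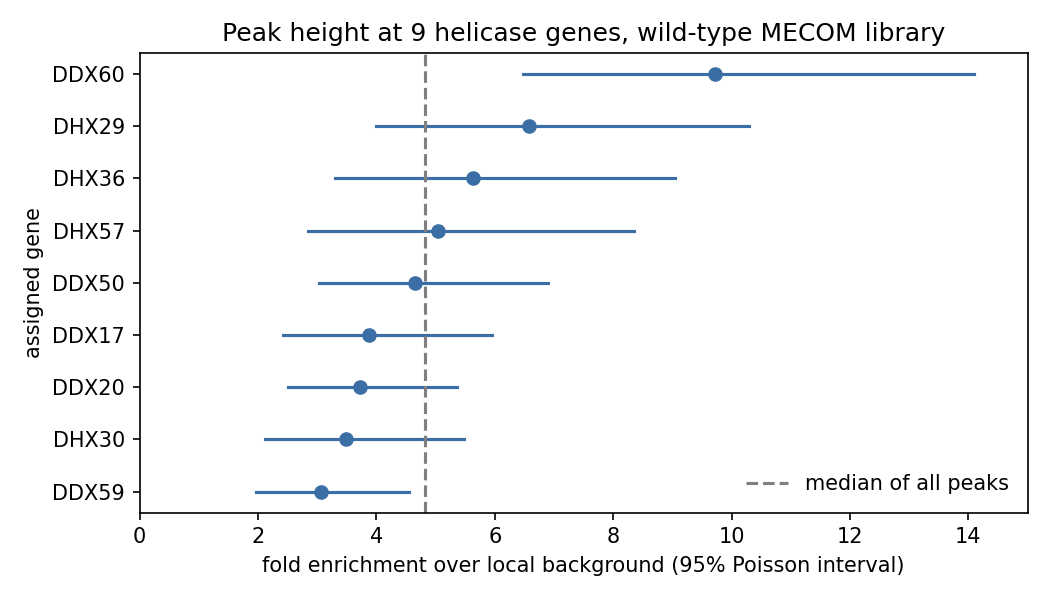
Fold enrichment over local background (horizontal axis) of the peak assigned to each helicase gene in the wild-type library, with points for the deposited value, lines for the exact 95% Poisson interval and a dashed line at the median of all peaks. DDX60 sits at 9.72, wholly above the median of 4.82, DDX59 at 3.06 sits wholly below it, and the other 7 lines cross it.

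As a group the 9 peaks were of ordinary height. Their median fold was 4.66, with a range of 3.06 to 9.72, beside 4.82 for all 3462 peaks, whose quartiles were 4.06 and 5.67. Neighbours in the order of fold did not differ beyond their intervals. Of the 36 pairs of helicase peaks, 32 had overlapping intervals. The 4 pairs that did not overlap set DDX60 above DDX17, DDX20, DHX30 and DDX59. At a q of at most 1e-05 the list kept 5 of the 9, DDX60, DHX29, DDX50, DHX36 and DDX20, beside 54.8% of all peaks. The −log10 q of these was 16.6, 7.76, 6.47, 5.74 and 5.37 in that order. DHX57 had 4.36 and DDX17 4.01, while DHX30 and DDX59 shared the lowest value, 2.94, against a minimum of 2.0 in the whole list.

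The highest folds came with the lowest backgrounds, by which the fold is divided. DDX60, DHX29, DHX36 and DHX57, the 4 highest by fold, all had a background under 2 fragments, and the other 5 all had one over 4. The fragments themselves ran from 13 to 27 with a median of 19, beside 18 for all peaks. By fragments, DDX20 (27), DDX60 (26), DDX50 (23) and DDX59 (22) came first, and DHX36 (15) and DHX57 (13) last. DDX60 alone was among the first 4 on both scales. Folds recur where peaks share both a whole number of fragments and a background, and backgrounds recur, as at DDX50, DDX17 and DHX30 (4.15). The DHX30 fold was shared by 29 peaks of the list and that of DHX57 by 19. What set the background at each gene was not tested, and the intervals leave out its error.

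**Figure D2:**
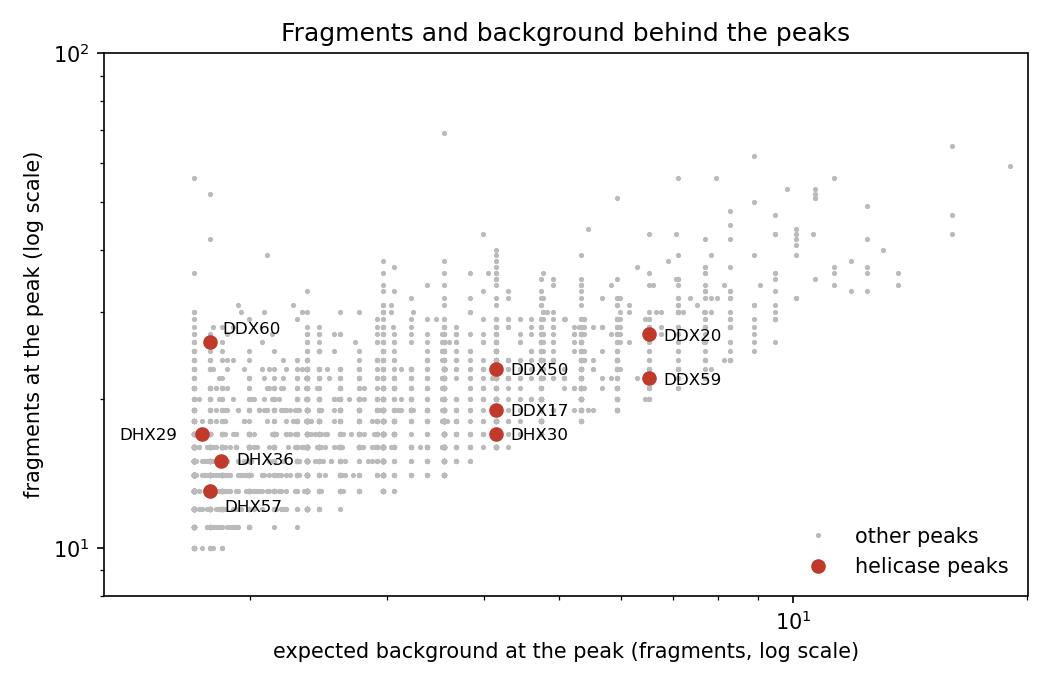
Fragments at the summit of each peak (vertical axis, log scale) against the expected background there (horizontal axis, log scale). Large points are the 9 helicase peaks and small points the other peaks of the list, leaving out 27 peaks beyond the axes. DDX60, DHX29, DHX36 and DHX57 lie at backgrounds of 1.74 to 1.84, DDX50, DDX17 and DHX30 at 4.15, and DDX20 and DDX59 at 6.52.

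All 9 peaks lay close to a gene start, which is not independent of the choice, since the table gives a peak to its nearest gene. Of the 9, 8 began within 1000 bp of the deposited start, as did 65.1% of the 2474 peaks assigned to a gene with a symbol. The exception was DHX29, at 1406 bp. The deposited distance runs to the lower coordinate of the peak, which on the minus strand is its far edge, and 6 of the 9 genes lie on that strand. By the nearest edge all 9 were within 1000 bp, beside 71.1% of those 2474 peaks, with DHX29 at 919 bp. The deposited class placed 4 peaks, those of DHX36, DDX20, DHX30 and DDX59, across the start, beside 21.8% of peaks with a symbol that span a start or cover the gene. It placed the other 5 inside the gene. None of the 9 was upstream or downstream of its gene, beside 27.3% of peaks with a symbol. These 9 peaks are too few, and were assigned by nearness to a gene, for a difference from the list to be read from these shares.

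The place of a peak relative to the start depended on the annotation at several genes. RefSeq starts lay 1349 bp farther into the gene than the deposited start at DDX17, 656 bp at DDX20 and 229 bp at DHX30, so these 3 peaks were wholly upstream of the RefSeq start, ending 439, 127 and 80 bp before it. At DDX17 the same peak is therefore inside the gene in the deposited table and upstream of it in RefSeq. At DHX36 the starts differed by 10 bp, and at DHX57 by 0 bp. DDX59 has 2 RefSeq starts, 62 and 233 bp into the deposited gene, and its peak covered both. The peaks of DHX36 and DDX59 were the 2 that spanned a start in both annotations. The peaks of DDX60, DHX57, DDX50 and DHX29 began 43, 34, 117 and 891 bp inside from the RefSeq start. Whether these bases are exon or intron was not determined here.

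**Figure D3:**
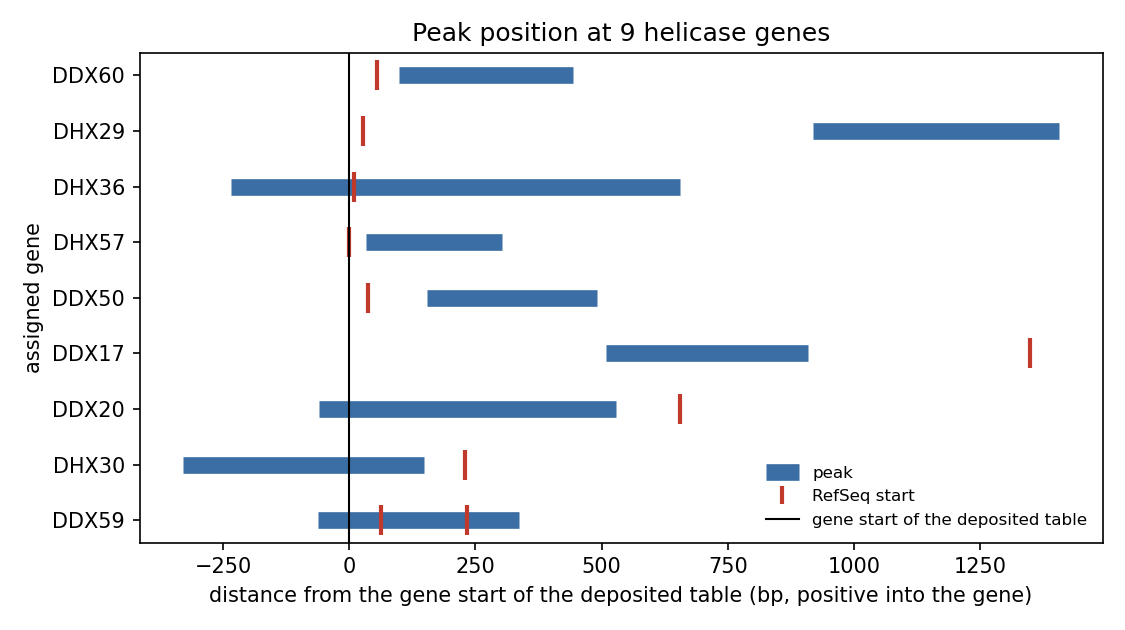
Extent of each peak (thick bars) in bp from the gene start of the deposited table (vertical line at 0), positive into the gene, with RefSeq starts as upright ticks. Bars of DHX36, DDX20, DHX30 and DDX59 cross the line, and the ticks of DDX17, DDX20 and DHX30 lie beyond the inner end of the bar, up to 1349 bp at DDX17.

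At several of these genes another gene begins beside the helicase, so the peak has more than 1 possible gene. MORN2 starts 42 bp from DHX57 on the opposite strand, and the DHX57 peak ended 76 bp before the MORN2 start. INKA2 starts 104 bp from DDX20 on the opposite strand, 23 bp beyond the edge of the DDX20 peak. That peak lay wholly inside the RefSeq span of INKA2, and the start of the non-coding gene LOC101928718 lay inside the peak. The RefSeq start of DDX20 itself was farther from the peak, at 127 bp. The non-coding gene DDX59-AS1 starts 125 bp from the edge of the DDX59 peak on the opposite strand, and its RefSeq span holds the whole of that peak. MTREX, the helicase of the nuclear exosome and itself a Ski2-like family member, starts 295 bp from DHX29 on the opposite strand, 1186 bp from the DHX29 peak. MTREX was named after its value was seen, since it lies beyond the 1000 bp used for neighbours. The deposited table assigns a peak to the nearest gene of its own annotation, which at DDX20 is not the gene with the nearest RefSeq start. Such an assignment cannot tell which of these neighbours a peak belongs to.

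The distance from a helicase peak to the nearest other peak ran from 14541 to 1602274 bp. The nearest other peak was 14541 bp away at DDX20, 68902 bp at DDX59 and 103853 bp at DHX36. It was 189813 bp away at DDX17, 245134 bp at DHX57, 284384 bp at DHX30, 300841 bp at DDX50, 513359 bp at DDX60 and 1602274 bp at DHX29. The median was 245134 bp, beside 133104 bp for all peaks with a gene and 136576 bp for those with a gene symbol. With 9 genes chosen for a peak, no difference is read from these medians. The 9 genes lie on 7 chromosomes, so the peaks do not come from a single dense region.

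Within the wider helicase family, 9 of 68 genes (13.2%) were assigned a peak, beside 9.94% of 20037 protein-coding genes. The 9 are those chosen, so this count describes the choice and the share is near the background. By branch, 4 of 38 DEAD box genes had a peak (10.5%), 4 of 18 DEAH box genes (22.2%) and 1 of 8 Ski2-like genes (12.5%). None of the 3 RIG-I-like genes, RIGI, IFIH1 and DHX58, which sense viral RNA and were named here after their values were seen, had one. Counting a peak on the RefSeq span widened by 1000 bp gave 10 of 68 genes, beside 13.7% of protein-coding genes. The added gene was ASCC3, a helicase of the activating signal cointegrator complex that also splits collided ribosomes. The ASCC3 peak, on chromosome 6 from 100880930 to 100881673, contained an end of the RefSeq span of ASCC3 and was assigned in the deposited table to ENSG00000260000, a gene without a symbol. With 21 fragments over 2.0 it reached 7.34-fold (4.67 to 11), a value above those of 8 of the 9 chosen genes. Its interval overlapped those of all the chosen genes except DDX59 (1.97 to 4.56).

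As with most of the family, 59 of whose 68 genes had no assigned peak, none was assigned to DDX60L, DDX21 or DDX5, paralogs of members that were named after their values were seen. DDX60L, the neighbour and paralog of DDX60, lay 38026 bp from the nearest peak. DDX21, the neighbour and paralog of DDX50, lay 54401 bp from one, and DDX5, the paralog of DDX17, lay 468264 bp from one. Of the 59 family genes without an assigned peak, 4 had a peak within 10000 bp of their span, beside 8.31% of the 18046 protein-coding genes without one. They were ASCC3, MTREX, DHX37 (7601 bp) and DQX1 (9823 bp), the last 2 of which were also named after their values were seen. The list holds only peaks past its threshold, so weaker signal at the other genes would not appear in it.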

How the data were processed

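Per the submitters' processing notes the build was hg38, and the tools named there, with no order, include MACS2 (2.1.1.20160309.6), Bowtie2 (2.4.2), HOMER (4.10) and ChIPseeker (1.18.0). The peak table came without column names, which were worked out from what each column holds. The fold enrichment, a ratio to local background, the −log10 p-value, the −log10 q-value and the score of each peak are the authors' own deposited values. The score carries the −log10 q on another scale and was not used further.

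Members were the peaks whose assigned symbol was one of the 9 genes. The members and lists were chosen with earlier results of these data known, so no test was made. Fragments and background were solved from fold and p (Poisson tail, within 0.001, or a share of 1e-05 above 1000), with 1 solution at all 3462 peaks and at 100% of 500 simulated peaks. Reads per library, and which library gave the background: not given in the sources used here. RefSeq (GRCh38.p14) gave gene spans and promoter windows, and 68 of 68 family genes and 2236 of 2286 listed symbols matched. Named genes were the 9 members, family genes with a peak assigned or within 1000 bp of their span, and genes with an end within 1000 bp of a member peak; MTREX, DHX37, DQX1, DDX60L, DDX21, DDX5 and the RIG-I-like genes lie outside this rule. Alternatives were a stricter q, other distances, RefSeq starts, other family and overlap definitions, a fold with nothing added, and other motif strands and windows. Python 3.11.15, pandas 2.3.3, numpy 2.4.6, scipy 1.17.1 and matplotlib 3.10.9 were used.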

Additional observations from a re-analysis of the deposited data

How the results depend on the processing

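Of 35 alternative values, 29 stayed within their interval or within 1.5 times the count, and 6 did not. Some of the 29 could not have moved, so this tally does not measure robustness. The counts of 0 for GACAAGATA, GAAGATGAG and TGANTCA cannot rise when 1 strand or fewer bases are searched. Each gene had 1 peak, so taking its highest peak changes nothing, and all 9 members carry a DDX or DHX symbol. At a q of at most 1e-05 the number of family genes with a peak fell from 9 to 5. The number of helicase peaks beginning within 1000 bp of the start fell from 8 to 4. A stricter list can only keep or lower these counts, and it keeps 54.8% of all peaks. Shares over all genes and all starts at that setting are not given here. Counting only peaks across the start gave 4, beside 21.8% of peaks with a symbol that span a start or cover the gene. Counting those across a RefSeq start gave 2, with no share over all peaks given here. Requiring the peak to cover at least 150 bases of the promoter window gave 3 genes in place of 6. DDX60 and DHX57, among the 6, had only 7 and 16 bases of a window in the peak. The share of all genes at 150 bases is not given here. With nothing added to fragments and background the DDX60 fold was 14.6 in place of 9.72, by construction, since the added 1 weighs most at low background. The nearest-edge and RefSeq start settings were chosen after the data were seen. No paired analysis was possible because all values come from the peaks of 1 library. Between 13 and 27 fragments at each summit limit the ranking.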
